A study of Mus musculus with 22 samples.

Results

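Microglia, the resident macrophages of the brain, were compared between aged and young adult male mice. The comparison takes every male library of the oldest and of the youngest age in the labels, 3 against 3, which makes 6 of the 22 libraries of the series. RNA was sequenced in bulk from cells sorted from whole brain as CD11b+, CD45low and Lin-, from C57BL/6J mice whose labels give no treatment and whose sample titles carry the letters SPF. Young adult males were 6 to 10 weeks old and aged males 96 to 104 weeks. Middle-aged males (50 to 54 weeks) gave another 5 libraries and females at the same 3 ages 11, and the series asks what sex changes in aging microglia. The labels do not say whether a library came from 1 animal, so p-values here measure the spread between libraries, which may be technical. Libraries are called young adult males 2, 3 and 4 and aged males 1, 2 and 4 after the numbers in their titles, and every set of 3 values below follows that order. Values are normalized counts, that is reads divided by 1 size factor per library, and changes are differences in log2 of the normalized count plus 1, given ± the standard error of the fit.

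Microglia arise from the yolk sac, renew themselves in the brain and depend on signalling through Csf1r. In the healthy adult brain they express sensing genes such as P2ry12, Tmem119 and Cx3cr1. Around plaques, degenerating myelin and in old tissue, some of them take up a disease-associated programme of lipid, lysosome and phagocytosis genes, and others an interferon-responsive or antigen-presenting programme.

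The 6 libraries held the microglial marker P2ry12 at high levels: it stood at 178518, 184296 and 220204 in young adult and 172482, 201399 and 188959 in aged males. Depth was 20574013 to 26377593 reads in young adult and 17919286 to 23625213 in aged males. The normalized counts summed to 21419285 to 21942341 in young adult and 23067608 to 23562594 in aged males. On the first principal component of all 22 libraries, which holds 15.4% of the variance, young adult and middle-aged males lay at 20.8 to 64.6 and all other libraries, the aged males among them, at 1.25 or below. The comparison therefore crosses a gap that also separates young adult males from young adult females. The labels name no batch, and what the gap follows was not tested.

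Some libraries carried transcripts of other cells. The neutrophil granule genes S100a9 and Ltf were at 0 in all 3 young adult males and at 1000.2, 0.987 and 1085 and 747, 0.987 and 1438 in aged males, so aged males 1 and 4 held them and aged male 2 held at most 1 read. Neutrophil markers summed to 7317 to 8055 in young adult and 7868 to 15691 in aged males, sums that are mostly Csf3r, a receptor gene microglia also express. Ttr and Kl, genes of the choroid plexus, stood at 2007, 3.12 and 1.66 and 112, 0 and 0 in young adult and 4342, 2046 and 1665 and 305, 118 and 183 in aged males. Young adult male 2 thus resembled the aged libraries in these genes, while young adult males 3 and 4 lay near 0. Markers of border-associated macrophages summed to 6089 to 7324 in young adult and 6925 to 7358 in aged males, and none of the 11 tested passed. Of monocyte markers, 3 of 9 were higher (S100a6, Ace and S100a4), with sums of 5085 to 6297 and 5794 to 9585. Without aged male 1, young adult male 3 or young adult male 4 only 1 of the 9 was higher. The part of these cells in the results below was not tested, beyond fits that leave libraries out.

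Of 12552 genes tested, 2124 differed between aged and young adult males (16.9%), 1168 of them higher in aged males (9.31%) and 956 lower (7.62%). Changes of more than 2-fold made up 363 of the higher and 357 of the lower calls, and the median change over all genes was -0.02 on the log2 scale. The values of the 2 groups did not overlap for 14.8% of genes with aged males above and for 14.1% with aged males below. Since these are bulk samples, more cells in a state and more RNA per cell cannot be told apart. Leaving out young adult male 2 brought the 2124 calls to 1241, leaving out young adult male 3 brought them to 1452, and fitting only the 6 libraries brought them to 696. The count was again 696 without aged males 1 and 4 together, a fit that leaves a single aged library and takes its spread from the other groups. When each library was rescaled to the same total, the split became 772 higher and 1500 lower, and the median of all genes moved to -0.13.

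**Figure D1:**
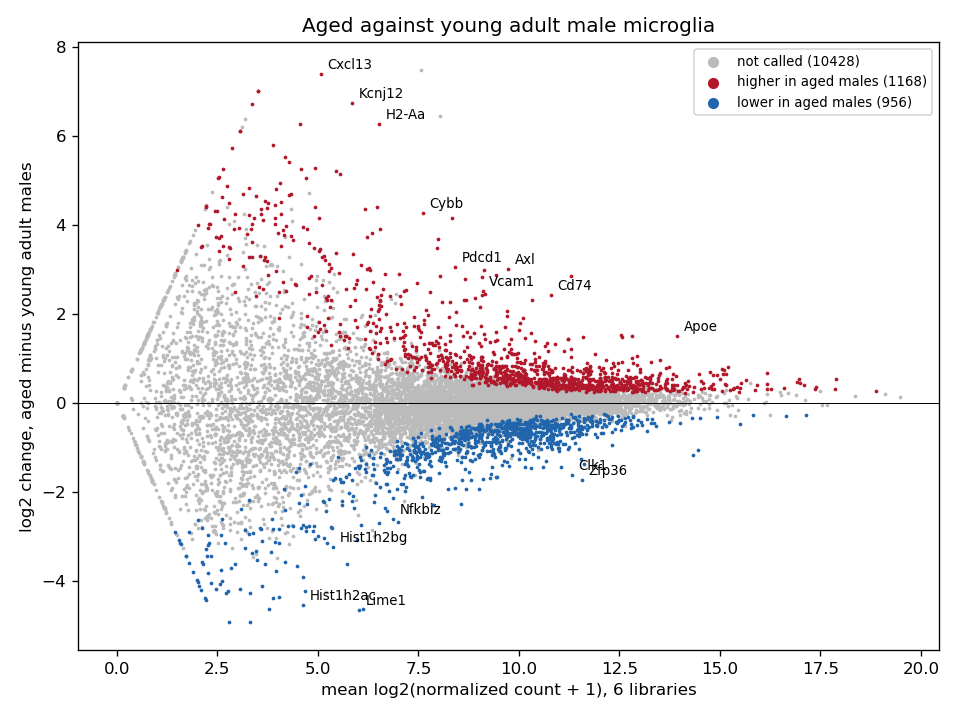
Each point is 1 of 12552 genes, with the mean of log2(normalized count + 1) over the 6 libraries on the horizontal axis and the log2 change from young adult to aged males on the vertical axis. Genes with an adjusted p below 0.05 are coloured by direction, 1168 higher and 956 lower, and named points include Cxcl13 and Kcnj12 at the top and histone genes at the bottom.

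Of 16 genes of antigen presentation by MHC class II, 10 were higher in aged males and none lower. Class II molecules carry peptides from engulfed proteins to CD4 T cells, and their genes share an upstream module of X and Y boxes read by the coactivator Ciita. The promoters of an alpha chain, of a beta chain that is not its partner and of a peptide-loading subunit are shown because all 3 genes passed the test as higher. Each line is 100 bases upstream of a RefSeq start (GRCm38.p6), written 5′ to 3′ on the gene's strand, with matches to an X box core (ACNGATG) or Y box (CTGATTGG) on either strand in capitals.
H2-Aa: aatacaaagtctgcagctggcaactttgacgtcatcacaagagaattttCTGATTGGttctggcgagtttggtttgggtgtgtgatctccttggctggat
H2-Eb1: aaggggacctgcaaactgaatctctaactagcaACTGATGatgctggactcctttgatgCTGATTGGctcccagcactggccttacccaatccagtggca
H2-DMb1: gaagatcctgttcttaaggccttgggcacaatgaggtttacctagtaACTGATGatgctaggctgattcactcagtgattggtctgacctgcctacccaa
The windows are chr17:34287824-34287923 (minus strand), chr17:34305746-34305845 (plus strand) and chr17:34153053-34153152 (plus strand). Within 250 bases before the start, 6 of the 12 class II members with a promoter in the table held the X box core and 3 held the Y box, against 7.2% and 6.4% of 9733 tested genes. Of the 8 called members with a promoter, 5 and 3 held them. A match describes these letters only.

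The median log2 change of the 16 class II presentation genes was 0.73 against -0.02 over all genes. Cd74, the invariant chain, went from 691, 790.3 and 814 in young adult to 4169.6, 4622 and 3590.5 in aged males (2.43 ± 0.21, adjusted p = 5.09e-08). H2-Ab1, a beta chain (mm10 chromosome 17, 34257689 to 34269419), went from 184, 212 and 198 to 1610.4, 1840.3 and 1298 (2.98 ± 0.31, adjusted p = 6.04e-07). H2-Aa, its alpha partner (chromosome 17, 34282744 to 34287823), went from 1.69, 38.5 and 9.98 to 771, 1139 and 601 (adjusted p = 0.00043). All 3 aged libraries lay above all 3 young adult ones for each of these genes, and aged male 2 was the highest. The size for H2-Aa depended on a few reads, with a log2 change of 6.26 ± 1.11, 5.28 without young adult male 2 and 7.22 without young adult male 3. H2-Eb1, another beta chain, went from 21.1, 22.9 and 25.8 to 304, 509 and 307 (adjusted p = 0.00132). The peptide editor subunits H2-DMa (0.75 ± 0.08) and H2-DMb1 (0.55 ± 0.10) and the editor's partner H2-Ob (0.95 ± 0.12) rose by smaller amounts, with adjusted p from 6.11e-07 to 0.000535. Ctss, the protease that trims the invariant chain, rose by 0.54 ± 0.10 from a far higher level, 190139, 214684 and 194010.3 to 307931, 280638 and 284007 (adjusted p = 0.000857). Ciita itself stayed low, at 14.3, 10.4 and 1.66 and 28.3, 24.7 and 32.5, and did not pass (adjusted p = 0.31). In middle-aged males Cd74 ranged from 1003 to 1646 and H2-Aa from 97.4 to 178. Beside these gains, markers of border-associated macrophages, which also carry class II, gave the sums above, and 3 of the 9 monocyte markers were higher (1 with any of 3 libraries left out, as named there).

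Of the MHC class I genes, whose products show peptides from inside the cell to CD8 T cells, 12 of 20 were higher and none lower (median 0.52). The peptide transporter subunit Tap1 went from 1161, 1113 and 1255 to 2102, 2258 and 2228 (0.90 ± 0.12, adjusted p = 1.24e-05) and its loading factor Tapbp from 11056, 12164 and 14127 to 18594, 17969 and 19846 (0.60 ± 0.08, adjusted p = 7.95e-06). The heavy chains H2-K1 (0.97 ± 0.17, adjusted p = 0.000398) and H2-D1 (1.00 ± 0.19, adjusted p = 0.000841) were higher too, and no aged library overlapped a young adult one in these 4 genes. Heavy chains share long stretches of sequence, so reads may be split between them. The immune proteasome subunits Psmb8, Psmb9 and Psmb10 were counted among the 20 class I genes. The standard proteasome, which cuts the peptides, had 3 of 31 genes higher and 2 lower, near the 9.31% and 7.62% of all genes. These counts were 1 and 3 without aged male 2, 2 and 1 without aged male 4, 1 and 1 when young adult male 2 was left out, and 1 and 5 with libraries rescaled to the same total. In that scaling 9 members were higher and 1 lower in either MHC class. Without aged males 1 and 4 together, 5 class I and 7 class II members were higher.

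**Figure D2:**
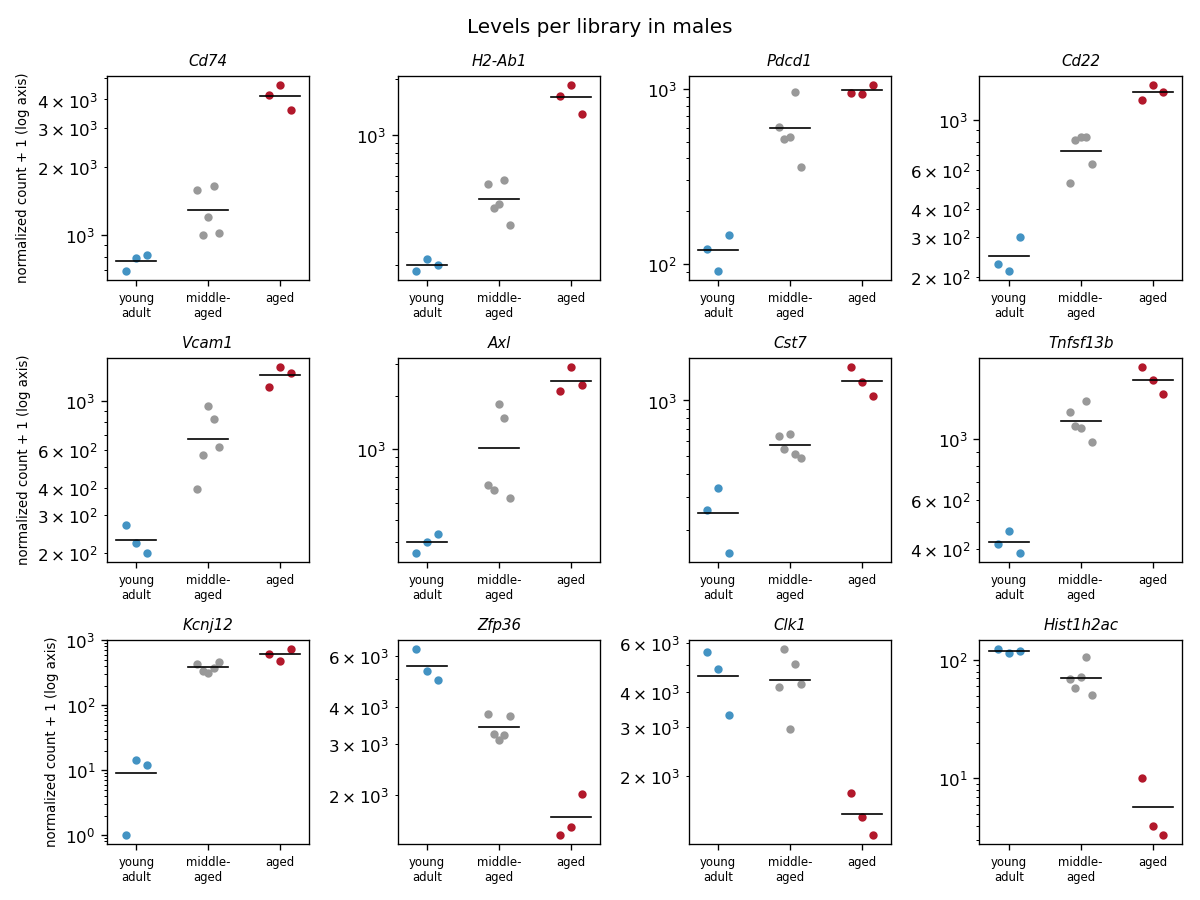
Normalized counts per library on a log axis (count + 1) for 12 genes named in the text, in young adult, middle-aged and aged males (points, 3, 5 and 3 libraries; bars mark group means). Aged males lie above young adult males in the first 9 panels and below them in Zfp36, Clk1 and Hist1h2ac.

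Genes induced by type I interferon, the antiviral cytokine family, formed the next group. Many of them carry interferon response elements, shown here in the promoters of 3 members as TTCNNTTTC on either strand, in capitals.
Ifit3: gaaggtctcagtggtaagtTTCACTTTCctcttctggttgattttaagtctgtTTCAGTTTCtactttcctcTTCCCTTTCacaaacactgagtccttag
Isg15: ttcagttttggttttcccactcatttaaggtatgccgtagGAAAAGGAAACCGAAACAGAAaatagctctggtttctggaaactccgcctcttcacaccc
Rsad2: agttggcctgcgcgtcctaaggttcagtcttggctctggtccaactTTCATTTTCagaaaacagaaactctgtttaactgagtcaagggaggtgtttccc
The windows (GRCm38.p6, from RefSeq) are chr19:34583355-34583454 (plus strand), chr4:156200837-156200936 (minus strand) and chr12:26456518-26456617 (minus strand). Those of Ifit3 and Isg15 hold 3 matches each, overlapping in Isg15, and that of Rsad2 holds 1. Of 34 list members with a promoter in the table, 18 held the motif in 250 bases (52.9%), against 7.77% of 9733 tested genes. Of the 16 called members with a promoter, 7 held it.

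Of 45 type I interferon genes tested, 22 were higher in aged males and 1 was lower, with a median of 1.34. Ifit3, which binds viral RNA complexes, went from 127, 314 and 138 to 662, 1175 and 884 (2.31 ± 0.42, adjusted p = 0.000503). It has a near-identical neighbour, Ifit3b, and reads may be split between them. Ifitm3, which blocks viral entry, went from 146, 224 and 191 to 747, 1031 and 1016 (2.32 ± 0.45, adjusted p = 0.000973). Oasl2, an antiviral synthetase-like protein, went from 142, 127 and 49.9 to 424, 1025 and 794 (2.84 ± 0.62, adjusted p = 0.00259), and Rsad2, which makes a chain-ending nucleotide, from 32.9, 35.4 and 16.6 to 87.5, 391 and 309.6 (2.98 ± 0.65, adjusted p = 0.00254). The groups did not overlap in these genes, yet the aged libraries were not alike: aged male 1 had the lowest level of all 4, and for Rsad2 the other two aged males had over 3 times as much. Without aged male 1 the change in Rsad2 was 3.64. Lgals3bp, a secreted glycoprotein, went from 3861, 3957 and 5109 to 13393, 11251 and 11845 (1.50 ± 0.23, adjusted p = 8.02e-05) and here aged male 1 was the highest. Isg15, a ubiquitin-like modifier, went from 54.8, 123 and 81.5 to 174, 285 and 245 (adjusted p = 0.0101), a call lost without young adult male 2 (adjusted p = 0.0746) and in the fit of the 6 libraries alone (0.0646). Without aged males 1 and 4 together 16 of the 45 were higher, and none was lower without aged male 4, young adult male 2 or young adult male 4. Of 16 interferon receptor and signalling genes, 3 were higher and 2 lower, against 9.31% and 7.62% of all genes. That balance did not hold: none was higher and 1 lower without young adult male 3, 1 and 1 without young adult male 2, and none and 3 with libraries rescaled to the same total. Without aged male 1, aged male 4 or young adult male 4, too, 1 of these was lower.

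Of the surface receptors of adhesion and immune restraint, 13 of 27 were higher and none lower (median 0.31). Pdcd1, the checkpoint receptor PD-1 (chromosome 1, 94038305 to 94052553), went from 121, 89.5 and 145 in young adult to 950.0, 940.4 and 1049.5 in aged males (3.07 ± 0.28, adjusted p = 8.43e-08). Cd22, a sialic acid receptor known to hold back phagocytosis (chromosome 7, 30865402 to 30880342), went from 227, 211 and 299 to 1224, 1427 and 1328 (2.44 ± 0.19, adjusted p = 9.31e-09). Vcam1, the ligand of the integrin VLA-4, went from 267, 222 and 199 to 1164, 1435 and 1357 (2.52 ± 0.32, adjusted p = 8.19e-06). In each of the 3 genes the lowest aged library held at least 4 times the count of the highest young adult one, and the middle-aged males ranged from 356 to 963 for Pdcd1, reaching into the aged range, from 522 to 840.2 for Cd22 and from 394 to 951 for Vcam1. Slamf9 (1.49 ± 0.14, adjusted p = 2.1e-07) and Slamf8 (1.02 ± 0.18, adjusted p = 0.00047), receptors of the SLAM family, rose from higher starting levels of 1506, 1685 and 2442 and 641, 661 and 781. Cd40, the receptor through which T cells activate antigen-presenting cells, was nearly silent in young adults at 5.06, 3.12 and 0 and reached 76.0, 38.5 and 75.4 (adjusted p = 0.0013). Its log2 change of 4.39 ± 0.88 was 3.62 without young adult male 4. Lag3, a checkpoint receptor that binds class II, went from 1942, 1568 and 1902 to 2983, 2641 and 2813 (0.65 ± 0.18, adjusted p = 0.0163). That call was lost without aged male 1 (adjusted p = 0.054) and without young adult male 3 (0.0815). Cd86, a costimulatory ligand, had an adjusted p of 0.668 (11251, 11451 and 12239 and 11049, 10924 and 11329).

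Channels and tetraspanins gave further surface changes. Kcnj12, an inwardly rectifying potassium channel (chromosome 11, 61022564 to 61071131), was at 0, 13.5 and 10.8 in young adult and 601, 481 and 723 in aged males (adjusted p = 9.33e-08) and ranged from 314 to 464 in middle-aged males. Its log2 change was 6.74 ± 0.63, and 5.50 without young adult male 2 or 7.43 without young adult male 3. The proton channel Hvcn1 rose by 0.78 ± 0.09 (adjusted p = 5.17e-06) from 3073, 3049.7 and 3931 to 5114, 6032 and 6034. In total, 6 of 21 purinergic receptors and ion channels were higher and none lower. Cybb, the catalytic subunit of the phagocyte oxidase that Hvcn1 helps to keep running, went from 54.0, 60.4 and 25.0 to 896, 945 and 755 (4.28 ± 0.68, adjusted p = 0.000131). Of 15 tetraspanins and vesicle genes 9 were higher and none lower, or 7 and 1 with libraries rescaled to the same total, among them Cd63 (0.95 ± 0.13, adjusted p = 1.86e-05) and Cd9 (0.75 ± 0.10, adjusted p = 9.41e-06), which went from 25779, 25982 and 29443 to 47585, 45269.5 and 43479.

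Secreted signals changed in both directions, 13 of 28 cytokine and chemokine genes higher and 2 lower (median 0.87). Cxcl13, the chemokine that draws B cells (chromosome 5, 95956951 to 95961068), had the largest log2 change of the genes that the naming rule gives, from 0, 1.04 and 7.49 to 342, 804 and 298 (adjusted p = 0.000209). Aged male 2 held more than 2 times the count of the other aged males. The log2 change was 7.40 ± 1.23, 6.71 without young adult male 2 and 8.25 without young adult male 4. Tnfsf13b, the B-cell survival factor BAFF, went from 417, 464 and 386 to 1816, 1636 and 1454 (1.95 ± 0.19, adjusted p = 2.79e-07). Tnfsf8, the ligand of CD30, went from 48.9, 35.4 and 40.8 to 219, 172 and 196 (2.21 ± 0.31, adjusted p = 3.1e-05). Middle-aged males ranged from 976 to 1371 for Tnfsf13b and 171 to 308 for Tnfsf8, the latter overlapping the aged males. Il18, an inflammasome cytokine, fell from 1156, 1274 and 909 to 761, 637 and 646 (-0.70 ± 0.12, adjusted p = 0.000394), and with only the 6 libraries fitted it had an adjusted p of 0.0521. Il1b was at 52.3, 101 and 75.7 and 188, 145 and 124 (adjusted p = 0.0554), Tnf at 45.5, 38.5 and 106 and 0, 44.4 and 77.7 (adjusted p = 0.173) and Ccl3 at 657, 498 and 754 and 1147, 769.7 and 634 (adjusted p = 0.363), and none of these 3 classical inflammatory genes passed. Tnf did pass without aged male 4 (adjusted p = 0.0295, log2 change -3.11) and Il1b without young adult male 3 (0.046). With DESeq2 on all libraries Il1b passed too (adjusted p = 0.0376, log2 change 1.00). Of 36 genes of Toll-like receptors and NF-kB, 9 were higher and 5 lower, or 5 higher and 7 lower with libraries rescaled to the same total. The receptor Tlr2 went from 5174, 5014 and 6324 to 10360.2, 12412 and 11543 (1.06 ± 0.15, adjusted p = 3.5e-05). Nfkbiz, which encodes a nuclear NF-kB regulator of the IkB family, went the other way, from 277, 241 and 365 to 51.5, 26.6 and 73.1 (-2.61 ± 0.39, adjusted p = 6.58e-05). In 250 bases of promoter the NF-kB-like motif GGGNNTTCC was held by 8 of 27 members of the Toll-like receptor list and 3 of 22 of the cytokine list, against 7.51% of tested genes. Of the called members with a promoter 5 of 11 and 1 of 13 held it. Without young adult male 2 the cytokine count was 8 higher and 2 lower and that of the Toll-like receptor list 4 and 3. The latter had 3 lower members without aged male 1, aged male 4 or young adult male 3 as well, and the cytokine list had 1 without aged male 1 or young adult male 4. Without aged males 1 and 4 together 4 cytokine genes were higher and 1 lower.

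Disease-associated microglia genes had 27 of 36 members higher and none lower, with a median of 0.74. Without aged males 1 and 4 together 12 were higher. The cysteine protease inhibitor Cst7 went from 255, 336 and 148 to 1511, 1258 and 1055 (2.43 ± 0.25, adjusted p = 3.49e-07). Axl, which lets phagocytes bind apoptotic cells, went from 259, 299.9 and 334 to 2124, 2884 and 2282 (3.02 ± 0.40, adjusted p = 1.24e-05), and the glucan receptor Clec7a from 612, 542 and 589 to 2501, 1794 and 1301 (1.63 ± 0.25, adjusted p = 9.78e-05). Ly9, another SLAM receptor, went from 858, 691 and 666 to 2309, 2334 and 1903 (1.56 ± 0.16, adjusted p = 2.64e-07). For these 4 genes the aged libraries lay within 2-fold of each other and above all young adult ones. In 5 further genes aged male 1 was the highest library. Spp1, osteopontin, was at 142, 98.9 and 24.1 in young adult and 3616, 590.1 and 355 in aged males (3.68 ± 0.80, adjusted p = 0.00255), and its change was 2.69 without aged male 1, 4.36 without aged male 4 and 2.93 without young adult male 4, each still past the threshold. With only the 6 libraries fitted Spp1 did not pass (adjusted p = 0.0623). The lipid carrier Apoe was at 8886, 13348 and 6805 and 42842, 21846 and 19443 (1.50 ± 0.34, adjusted p = 0.00406). Gpnmb, a membrane glycoprotein of lysosome-loaded macrophages, had 0 reads in the 3 young adult males and 100.4, 13.8 and 37.1 normalized counts in aged males (adjusted p = 0.00344). Lilrb4a, an inhibitory receptor, was at 64.9, 69.8 and 64.9 and 588, 142 and 143. Its adjusted p of 0.0143 became 0.117 without aged male 1, where the log2 change was 1.09, and 0.104 with only the 6 libraries. Ch25h, which makes 25-hydroxycholesterol, was at 0.843, 2.08 and 9.15 and 369, 152 and 55.7 (adjusted p = 0.000413). Its log2 change of 5.25 ± 0.93 was 4.59 without aged male 1, 5.95 without aged male 4 and 5.95 without young adult male 4. Trem2, the receptor through which the programme is switched on, rose by 0.64 ± 0.10 from 26778, 32491 and 28642 to 51602, 41375 and 44568 (adjusted p = 6.26e-05). Its adaptor Tyrobp did not pass (21129, 23829 and 21472 and 33519, 22905 and 22952). The actin-binding proteins Capg (1.80 ± 0.13, adjusted p = 4.82e-09) and Gsn (2.41 ± 0.30, adjusted p = 7.54e-06) rose in a cytoskeleton list with 16 of 37 members higher and 2 lower, a count of 8 higher without aged male 1 or young adult male 2, 9 without young adult male 3 and 5 with libraries rescaled. Capg went from 535, 624 and 517 to 2232, 1698 and 1941. Aged male 1, the highest library in Spp1, Gpnmb and Ch25h, is also 1 of the 2 that carry neutrophil transcripts.

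**Figure D3:**
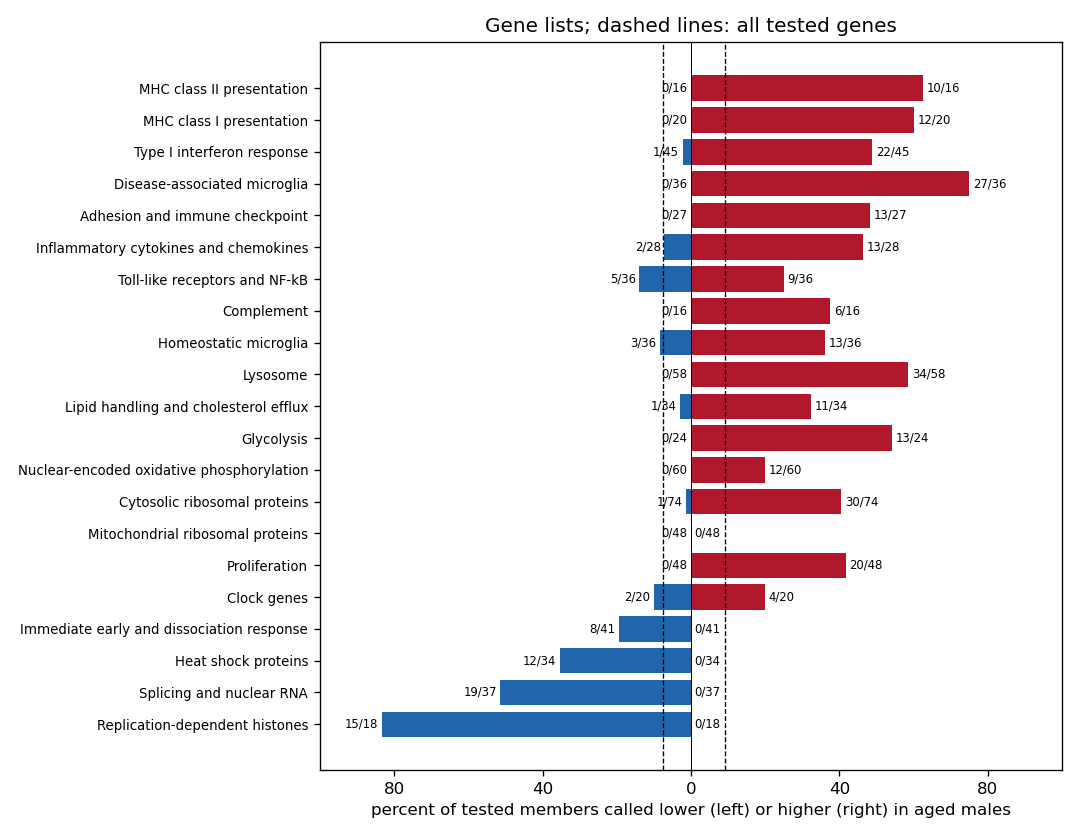
Percent of the tested members of each gene list that were higher (right) or lower (left) in aged than in young adult males, with the counts written beside the bars. The dashed lines mark the share of all tested genes, 9.31% higher and 7.62% lower, and most immune, lysosome and glycolysis lists extend past the right line while histone, splicing and heat shock lists extend past the left one.

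Of the genes that define resting microglia, 13 of 36 were higher and 3 lower (median 0.17), against 9.31% and 7.62% of all genes. This list shares Trem2 with the disease-associated list and C1qa, C1qb and C1qc with the complement list, so the calls of Trem2 and C1qa count in both. The fructose transporter Slc2a5 went from 21827, 26328 and 30533 to 41611, 41941 and 48727 (0.76 ± 0.09, adjusted p = 7.16e-06), and Tmem119 from 116765, 124831 and 122311 to 144917, 164630.4 and 170312 (0.40 ± 0.09, adjusted p = 0.00239). The TGF-beta receptor gene Tgfbr1, whose signal sustains this identity, rose by 0.51 ± 0.11 (adjusted p = 0.0034). The groups did not overlap in these 3 genes. With only the 6 libraries fitted, Tmem119 (0.066) and Tgfbr1 (0.0828) no longer passed by adjusted p, and the list had 3 members higher and none lower. Neither the purinergic receptor gene P2ry12 (-0.05 ± 0.10, adjusted p = 0.798) nor the identity factor Sall1 (change of 0.08 ± 0.11, adjusted p = 0.681) passed. Siglech was 1 of the 3 that fell, from 62336, 65507 and 61734 to 57343, 49001 and 51004 (-0.27 ± 0.07, adjusted p = 0.0135). It lost the call without aged male 2 (adjusted p = 0.0658), without young adult male 3 (0.0558) and with only the 6 libraries (0.128). In summed reads, not scaled for depth, Siglech went from 211056 in young adult to 138182 in aged males. On that measure Cx3cr1 went from 538761 to 351850, Fcrls from 377966 to 244927 and Gpr34 from 288366 to 188285. P2ry12 went from 653433 to 501019 and Sall1 from 45061 to 37326, although their normalized changes were -0.05 and 0.08. The aged libraries held fewer reads in sum, so a lower sum on this measure does not by itself give a lower level. Whether Cx3cr1, Fcrls and Gpr34 passed is not given here, and 26 of the 36 members had a positive change. When libraries were rescaled to the same total the list had 8 higher and 5 lower, and without young adult male 2 it had 8 and 3. Only 1 member was lower without aged male 2, young adult male 3 or young adult male 4. Complement genes had 6 of 16 members higher and none lower, with 3 higher without young adult male 2 and 1 without aged males 1 and 4 together. C1qa, which starts the classical pathway, went from 99898, 117511 and 101456 to 172876, 139178 and 153680.3 (0.54 ± 0.09, adjusted p = 0.000315).

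Of the lysosomal genes, 34 of 58 were higher and none lower, with a median of 0.35. Psap, the precursor of proteins that help break down sphingolipids, went from 60663, 65803 and 49682 to 92679.6, 105644 and 81085 (0.67 ± 0.12, adjusted p = 0.000451). The heparan sulphate enzyme Naglu (0.92 ± 0.14, adjusted p = 8.39e-05) rose as well, and the protease Ctsb went from 102014, 107657 and 104746 to 144444, 143432 and 144744 (0.46 ± 0.09, adjusted p = 0.00114). Aged libraries lay above young adult ones in each of these 3 genes. The lysosomal element TCACGTGA was found in the promoters of 6 of 47 members (12.8%) against 1.83% of tested genes, and in 2 of the 25 called members with a promoter. With only the 6 libraries fitted 14 lysosomal genes were higher, without young adult male 2 there were 22, and with libraries rescaled to the same total 20. Without aged males 1 and 4 together there were 11. Of 27 autophagy genes 3 were higher and 3 lower, near the 9.31% and 7.62% of all genes, with 1 lower without young adult male 2 and 2 lower without any other of the 6 libraries. Lipid handling genes had 11 of 34 members higher and 1 lower (6 higher without aged male 4, young adult male 2 or young adult male 3 and 7 without aged male 2, 6 with libraries rescaled). Sterol synthesis genes had 4 of 30 members higher, against 9.31% of all genes, and none lower. Their higher count was 1 or 2 when any library other than young adult male 4 was left out, and 1 with libraries rescaled.

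Of the glycolysis genes, 13 of 24 were higher and none lower (median 0.52), with 4 higher without aged males 1 and 4 together. Pkm, the pyruvate kinase of the last step, went from 3003, 3299.6 and 3447 to 5615, 5092 and 5659 (0.75 ± 0.10, adjusted p = 1.87e-05). The isomerase Tpi1 went from 1937, 2299 and 1934 to 3225, 2901 and 3069.8 (0.58 ± 0.12, adjusted p = 0.00225), and both groups of libraries were apart in both genes. Ldha, which makes lactate, was at 4331, 4394 and 3766 and 5004, 5119 and 4689 and did not pass (adjusted p = 0.0858). Of 60 nuclear genes of oxidative phosphorylation 12 were higher and none lower (median 0.15), 4 higher and 2 lower without aged male 1, 3 higher without young adult male 2, and 3 higher and 1 lower with libraries rescaled to the same total. Cytosolic ribosomal protein genes had 30 of 74 members higher and 1 lower, but 9 higher without aged male 1, 16 without young adult male 2, 19 with libraries rescaled and 3 in the fit of the 6 libraries. Such short genes with many processed copies in the genome are counted with uncertainty. No mitochondrial ribosomal gene passed (0 of 48 in limma at an adjusted p below 0.05, 1 in DESeq2, 0 in edgeR, and 2 at an unadjusted p below 0.05).

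Of the cell cycle genes, 20 of 48 were higher in aged males and none lower (median 1.32). Ccna2, cyclin A2, went from 33.7, 19.8 and 19.1 to 144, 182 and 144 (2.68 ± 0.46, adjusted p = 0.000309), without overlap. Cdk1, its kinase, went from 142, 122 and 93.2 to 309, 190.4 and 234 (1.02 ± 0.27, adjusted p = 0.00971). The latter call was lost without aged male 1 (adjusted p = 0.0531) and with only the 6 libraries (0.0909). Mki67, the common proliferation marker, was at 22.8, 86.4 and 44.9 and 33.5, 103 and 319, with the groups overlapping (adjusted p = 0.464). Without aged male 4 the count was 13 of 48, with only the 6 libraries 9 and without aged males 1 and 4 together 2. The highest library was aged male 2 for Ccna2, aged male 1 for Cdk1 and aged male 4 for Mki67. Aged males 1 and 4 are those with neutrophil transcripts, and the part of such cells in these counts was not tested. Middle-aged males ranged from 92.1 to 203 for Ccna2.

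Among the genes lower in aged males, the replication-dependent histone genes had 15 of 18 members lower and none higher (median -2.72). These genes normally give transcripts without a poly(A) tail and copies of one histone share sequence, so their counts are uncertain. Hist1h2ac (chromosome 13, 23681467 to 23683948) was at 122, 113 and 118 in young adult and 9.01, 2.96 and 2.32 in aged males (-4.55 ± 0.83, adjusted p = 0.000535), and Hist1h2bg at 143, 133 and 108 and 9.01, 15.8 and 13.9 (-3.24 ± 0.54, adjusted p = 0.000204). Middle-aged males lay between, at 49.3 to 104 and 79.1 to 101. Females were low at every age: Hist1h2ac was at 0, 3.04 and 0 in the 3 young adult and 9.44, 4.59 and 0 in the 3 aged females. Levels of Hist1h2ac thus split the libraries as the first principal component does, with young adult and middle-aged males high and the others low.

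**Figure D4:**
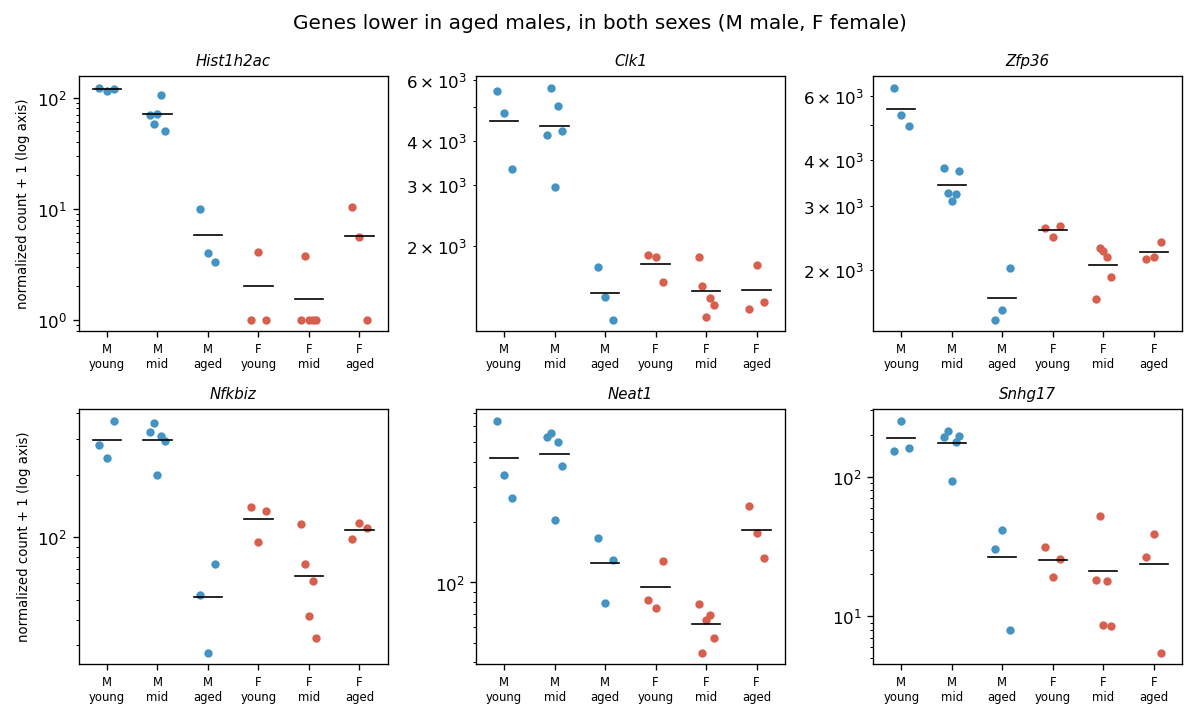
Normalized counts per library (log axis, count + 1) of 6 genes lower in aged males, in males and females of 3 ages. Every young adult male lies above every female library in each of the 6 genes.

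Splicing factors and RNAs held in the nucleus fell in 19 of 37 cases and rose in none (median -0.47). Clk1, a kinase of splicing factors, went from 5569, 4822 and 3325 to 1743, 1435 and 1233 (-1.62 ± 0.20, adjusted p = 6.04e-06), its relative Clk4 from 1438, 1566 and 1256 to 823, 541 and 336 (-1.41 ± 0.22, adjusted p = 0.000128) and the splicing factor Srsf7 from 5673, 5288 and 3288 to 1792, 2119.6 and 1890.3 (-1.26 ± 0.15, adjusted p = 3.71e-06). Neat1, the scaffold RNA of paraspeckles, went from 638, 340.5 and 262 to 166, 78.0 and 129 (-1.69 ± 0.39, adjusted p = 0.00387). The groups did not overlap in these 4 genes. Middle-aged males were at 2965 to 5691 for Clk1, and young adult females, at 1884, 1870.3 and 1582, overlapped the aged males. With only the 6 libraries fitted Neat1 had an adjusted p of 0.0572 and 8 genes of the list were lower. By the biotypes of GENCODE M21, 21 of 130 genes typed as processed transcripts were lower and 2 higher (16.2% lower, median -0.66), 10 of 139 antisense genes were lower and 1 higher (7.19% lower, median -0.58) and 14 of 126 lincRNA genes were lower and 3 higher (median -0.37). Protein-coding genes had 7.42% lower, 9.77% higher and a median of -0.004. In females the medians of these non-coding classes were between 0.04 and 0.08. The labels do not say that counting used the strand, so antisense reads cannot be told from those of the partner gene. The change also followed length: in 5 equal bins, genes with 7523 or more exonic bases had a median of -0.13 with 12.5% lower, and genes with up to 2448 bases a median of 0.04 with 5.32% lower. In females the medians of these bins were 0.02 and -0.03.

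Several regulators of inflammatory and stress responses fell. Zfp36, which marks the mRNAs of Tnf and other cytokines for decay (chromosome 7, 28376784 to 28380253), went from 6324, 5317 and 4958 to 1461, 1557 and 2027 (-1.72 ± 0.13, adjusted p = 4.82e-09). Nfkbid, of the same IkB family as Nfkbiz, went from 253, 219 and 177 to 60.5, 44.4 and 56.8 (-1.98 ± 0.38, adjusted p = 0.000915). Gadd45g, a stress sensor, went from 673, 587 and 515 to 122, 181 and 166 (-1.92 ± 0.24, adjusted p = 7.14e-06), and Rgs1, a brake on chemokine receptors, from 646, 932 and 539 to 346, 252 and 252 (-1.29 ± 0.27, adjusted p = 0.00161). No aged library reached the lowest young adult value in these 4 genes. Of 41 immediate early and dissociation genes 8 were lower and none higher (median -0.14), and these genes also respond to the handling of cells before RNA is taken, a part that was not tested. Heat shock proteins and chaperones fell in 12 of 34 cases and rose in none (median -0.40). Hspa1b, the inducible HSP70, was at 1244, 1159 and 28.3 and 6.44, 40.5 and 8.12, so that young adult males 2 and 3 were high and young adult male 4 lay among the aged males. Hspa1b (adjusted p = 0.0114) lost the call without young adult male 2 (adjusted p = 0.0847) and without young adult male 3 (0.074), and has a near-identical neighbour, Hspa1a. The factor Hsf1, which drives these genes, went from 1179, 1162 and 1206 to 694, 769 and 736 (-0.69 ± 0.13, adjusted p = 0.000927) with no overlap. The heat shock list had 3 members lower without young adult male 2, 5 without young adult male 3, 21 without young adult male 4 or with libraries rescaled to the same total, and 1 in the fit of the 6 libraries. A core of the heat shock element, GAANNTTC, lay in 8 of 26 promoters of the list (30.8%) against 6.22% of tested genes, and in 2 of the 9 called members with a promoter.

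Of 20 clock genes 4 were higher and 2 lower, the latter near the 7.62% of all genes. Hlf, an output factor of the clock, went from 228, 225 and 266 to 654, 905 and 636 (1.59 ± 0.34, adjusted p = 0.00206), and Arntl, a core activator, from 342, 446 and 279 to 135, 167 and 121 (-1.32 ± 0.38, adjusted p = 0.0197). The groups did not overlap in either gene. With young adult male 2 left out 1 clock gene was higher, and with aged male 2 left out there were 2. None was lower without aged male 1, young adult male 2 or young adult male 3, and 1 was without aged male 4. With libraries rescaled to the same total 3 were higher and 5 lower. Arntl lost the call without aged male 1 (adjusted p = 0.0502), aged male 4 (0.0666), young adult male 2 (0.057) or young adult male 3 (0.0894). The sources used here give no time of day for the taking of brains. The E-box letters CACGTG lay in 5 of 16 promoters of the list (31.2%) against 10.0% of tested genes, and in 0 of the 5 called members with a promoter.

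Several genes with the largest changes belong to none of these lists. Dlg5, a scaffold protein of cell junctions, had 2.53, 1.04 and 1.66 in young adult and 127, 212 and 317 in aged males (adjusted p = 5.15e-06), where the young adult values rest on 1 to 3 reads. Cyp4f18, a hydroxylase that inactivates leukotriene B4, had 0, 17.7 and 0 and 127, 86.8 and 161 (log2 change 5.53 ± 0.76, adjusted p = 2.07e-05). Its change was 6.93 without young adult male 3 and 4.82 without young adult male 2 or 4. Ptger4, a receptor for prostaglandin E2, had 0, 0 and 25.0 and 337, 62.2 and 91.6 (log2 change 5.41 ± 0.95, adjusted p = 0.000406). Its change was 6.97 without young adult male 4, 4.62 without young adult male 2 or 3 and 4.69 without aged male 1. For both genes, 2 of the young adult libraries were at 0 and every aged library was above the highest young adult one. Among the lower genes, Lime1, an adaptor protein at the membrane, went from 455, 311 and 251 to 2.57, 8.88 and 61.5 (adjusted p = 3.66e-05), and Dnmt3b, a DNA methyltransferase, from 99.5, 113 and 77.4 to 5.15, 0.987 and 20.9 (adjusted p = 0.000245). Pcnx2 had 40.5, 68.7 and 54.9 and 0, 0 and 4.64 (adjusted p = 0.00102). Aged male 4 held the highest aged value in these 3 genes. Without it the log2 change went from -4.66 ± 0.67 to -5.80 for Lime1, from -3.91 ± 0.66 to -4.79 for Dnmt3b and from -4.94 ± 0.96 to -5.77 for Pcnx2. Without aged male 1 that of Lime1 was -3.73, and without aged male 2 that of Dnmt3b was -3.06. The host RNA of small nucleolar RNAs Snhg17 went from 151, 251 and 159 to 29.6, 40.5 and 6.96 (log2 change -3.08 ± 0.70, adjusted p = 0.00364), and its log2 change was -2.36 without aged male 4. The same naming rule gave Lcn2, Glb1l2, Dtl and Spag5 on the higher side, and on the lower side Tmem86b, Fam129c, Hist1h1d, Ccdc8, Alms1, Icos, Pde1b, Psd3 and Igflr1. Of these, Lcn2 is a neutrophil marker like S100a9 and Ltf. Of the 8 neutrophil markers tested 4 were higher, and 7 without aged male 2. With any other of the 6 libraries left out, and with only the 6 libraries fitted, 0 were higher. For Ptger4 with only the 6 libraries the adjusted p was 0.0579.

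The change in males was set against that in females, a comparison with no library in common. In females 7.26% of genes were higher with age and 4.89% lower. Of the 1168 genes higher in aged males, 422 were also called higher in aged females, 36.1% of the male and 46.3% of the female calls, and 9 were called lower there. The same sign was seen for 80.7%, where 50.6% of all genes were positive in females. Of the 956 genes lower in aged males, 141 were called lower in females, 14.7% of the male and 22.96% of the female calls, and 14 were called higher there. The same sign was seen for 70.6%, where 49.1% of all genes were negative in females. The median change in females was 0.34 for the genes higher in males and -0.19 for those lower, against 0.65 and -0.82 in males. The difference between the sexes passed for 351 genes (2.80%), more positive in males for 165 (1.31%) and more negative for 186 (1.48%). With only the 12 libraries of these groups fitted 129 genes passed, and leaving out young adult male 2 from the full fit left 131.

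**Figure D5:**
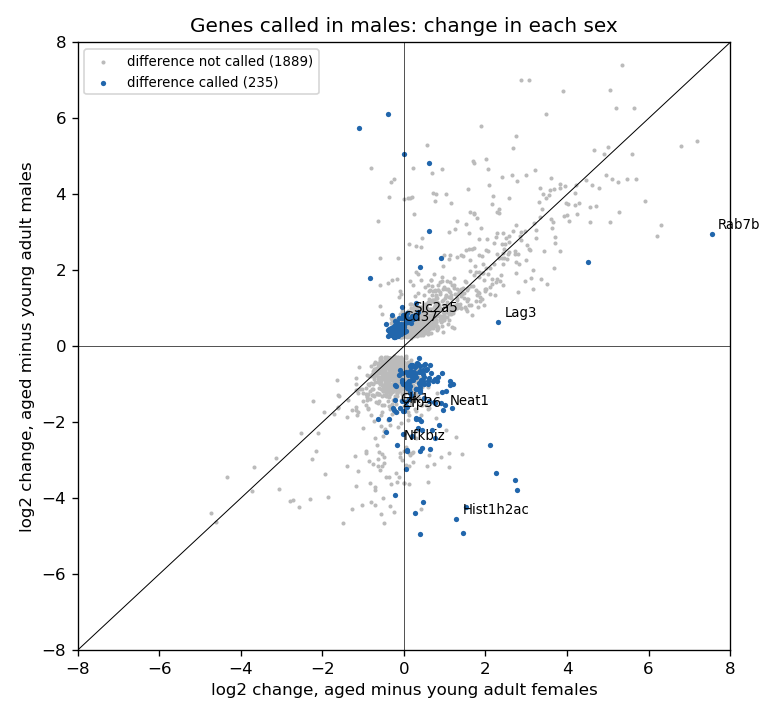
Log2 change from young adult to aged females (horizontal) and males (vertical) for the 2124 genes called in males. Blue points mark the genes whose change differed between the sexes (102 of the higher and 133 of the lower genes), grey points the rest, and the histone, Zfp36 and Clk1 points lie well below the diagonal.

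Several genes that fell in males fell less in females or, like Neat1, rose there. Zfp36 changed by -1.72 ± 0.13 in males and -0.20 ± 0.13 in females, a difference of -1.53 ± 0.18 (adjusted p = 0.000158). It was at 2601, 2462 and 2642 in young adult and 2148, 2178 and 2389.8 in aged females, below every young adult male. Clk1 (-1.36 ± 0.28, adjusted p = 0.0108), Nfkbiz (-2.45 ± 0.56, adjusted p = 0.0184), Neat1 (-2.64 ± 0.54, adjusted p = 0.0108) and the early gene Ier2 (-1.72 ± 0.30, adjusted p = 0.00307) also differed in that direction. Each of these genes was higher in every young adult male than in every young adult female. Other genes rose more in females: Lag3 rose by 2.31 ± 0.18 in females (difference -1.67 ± 0.26, adjusted p = 0.00154), and Ccl4, a chemokine, changed by 0.53 ± 0.25 in males and 2.34 ± 0.25 in females (difference -1.80 ± 0.36, adjusted p = 0.00965). In the other direction, the tetraspanin Cd37 rose by 0.52 ± 0.08 in males and changed by -0.19 ± 0.08 in females (0.71 ± 0.12, adjusted p = 0.00221). Slc2a5 (0.70 ± 0.13, adjusted p = 0.00652) and the matrix protein gene Olfml3 (0.59 ± 0.11, adjusted p = 0.00486) differed likewise. The largest differences that the naming rule gives came from genes near 0 in several groups. Gnat1, which encodes transducin of photoreceptors, was at 118, 143 and 182 in young adult females and at 1 read or less in each young adult and aged male library. Rab7b, a small GTPase of late endosomes, was at 22.8, 8.33 and 10.8 in young adult and 241, 82.9 and 60.3 in aged males, and at 0, 1.01 and 0 and 185, 179 and 389 in females. The same rule named Spag5, Glb1l2, Cd44, Trim16, Klrd1 and Olfm4 as more positive in males, and Pla2g2d, Hist1h2ac, Pcnx2, Stag3, Dnmt3b, Adgre4 and Hist1h2bg as more negative. Of the 16 genes the rule gives, 14 lost the call under at least 1 other fit or with 1 library left out, Gnat1 and Klrd1 being the exceptions. For Vcam1 the difference between the sexes, -0.56 ± 0.45, did not pass (adjusted p = 0.544), which does not show that the sexes changed alike.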

How the data were processed

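RNA of sorted microglia was amplified with a SMARTer v4 kit, per the labels' protocols. Per the submitters' processing notes, the tools included STAR 2.5.2, Trim Galore 0.4.3 and DESeq2 1.32.0, with build mm10. Counter and annotation: not given in the sources used here. What was deposited by the authors is a signal per gene, the reads divided by 1 size factor per library, and 100% of the values came out as whole reads within 0.01 after multiplying back.

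Genes with a value of at least 10 in at least 3 of 22 libraries were kept (12552 of 18072). Log2(value + 1) was fitted with limma 3.58.1 (R 4.3.3) over all 22 libraries as 6 groups, leaving 16 residual degrees of freedom. P-values were adjusted by Benjamini-Hochberg over all genes tested, with a threshold of 0.05. On simulated data 70% of 2-fold and 97% of 4-fold changes were recovered. The simulation fitted all 22 libraries, changed only genes with a mean of at least 50 and held no other difference between groups. Alternatives included edgeR 4.0.16 and DESeq2 1.42.0 on the recovered reads, other pseudocounts, no filter, TMM factors, a common total, fewer libraries and a replicate block. The fit without aged males 1 and 4 together was chosen after seeing the data.

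Named genes were list members or among up to 15 genes in each direction with the largest change that passed, with no overlap and a mean of at least 50 in the higher group, or up to 8 genes in each direction with the largest difference between the sexes; a few genes are not reported here. The members and lists were chosen with earlier results of these data known.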

Additional observations from a re-analysis of the deposited data

Results flagged for a closer look

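For 11 genes the difference between the sexes is given above with its standard error, and 10 of these passed the test of that difference. The genes named for the size of the difference passed it too, as did 2.80% of all genes tested. The log2 change in males minus that in females was -1.53 for Zfp36, -1.36 for Clk1, -2.45 for Nfkbiz, -2.64 for Neat1 and -1.72 for Ier2. It was -1.67 for Lag3 and -1.80 for Ccl4. On the positive side it was 0.71 for Cd37, 0.70 for Slc2a5 and 0.59 for Olfml3.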

How the results depend on the processing

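Of the 87 genes called in males and described with values, 70 kept direction and call under all alternatives tried other than the fit without aged males 1 and 4 together. No call reversed, 14 were lost with only the 6 libraries fitted and 20 without aged males 1 and 4 together. The 10 called differences between the sexes given with values kept their calls under the same alternatives, and 1 was lost without those 2 males. Of the 16 genes named for the size of their difference between the sexes, 14 lost the call under at least 1 of these alternatives, and Gnat1 and Klrd1 kept it. Of the 30 named for the size of their change in males, 17 kept the call under all of them. The count of genes changed in males, 2124 (1168 higher, 956 lower), was 696 (398 higher, 298 lower) with only the 6 libraries, 696 (377 higher, 319 lower) without aged males 1 and 4 together, and 772 higher with 1500 lower when libraries were rescaled to the same total. Leaving out 1 library at a time gave 1241 to 2066 genes, 739 to 1146 higher and 502 to 936 lower. The lowest of each came without young adult male 2, and without young adult male 3 there were 621 lower. The 351 genes whose change differed between the sexes (165 more positive, 186 more negative in males) became 698 (342 and 356) with DESeq2, 129 (51 and 78) with only the 12 libraries, 177 (67 and 110) without aged males 1 and 4 together, and 71 with 315 when rescaled. Leaving out 1 library gave 131 to 424 genes, 57 to 210 more positive and 74 to 214 more negative: 131 without young adult male 2, 196 without young adult female 4, 209 without aged female 3 and 228 without aged female 1. The cause of these shifts was not tested, beyond the smaller number of libraries in some fits.

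No pairing of same-numbered male libraries was seen: their deviations from the group means correlated at 0.01 (number 2) and 0.04 (number 4). Libraries of unlike number correlated at -0.02 and 0.04. So few pairs cannot settle whether the numbers mark a shared preparation. With a replicate block 1743 genes changed in males (996 higher, 747 lower) and 200 differed between the sexes (88 and 112). Values near 0 changed sign: P2ry12 was 0.0019 with the replicate block, 0.058 without aged males 1 and 4 together and -0.11 to 0.046 leaving out 1 library. Sall1 was -0.034 when rescaled and -0.025 to 0.22 leaving out 1 library, and Tnf -3.11 to 0.037. In the simulation fitted over all 22 libraries, 70% of 2-fold changes were recovered among genes with a mean of at least 50. Recovery in genes below that mean or with only the 6 libraries fitted was not simulated. Genes near 0 reads have changes set by the pseudocount.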
